A study of Mus musculus with 4 samples.

Results

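The 34 genes described here encode thioredoxin, glutathione and antioxidant enzymes, and they were measured in mouse skeletal muscle with and without TBP-2 (thioredoxin-binding protein 2, encoded by Txnip). They were chosen by gene name as members of this redox system, with earlier results of these data known. Their names or older aliases were matched to 59 probes among 41174, and the 34 genes stand among 27597 measured. The 4 genotypes were TBP-2-/-, ob/ob TBP-2-/-, ob/ob and WT, each with 1 one-colour array. All mice were 10 weeks old and had free access to food. Strain, sex, the muscle taken, the deleted stretch of Txnip and whether an RNA was from 1 mouse or several are not given in the labels. The ob/ob mouse lacks functional leptin and becomes obese. The labels give the question in general terms, as the effect of TBP-2 deficiency on muscle gene expression. For the 34 genes it becomes whether the redox system shifts when the protein that binds thioredoxin is lost.

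Thioredoxin is a small protein that reduces disulfides in other proteins and is itself recharged by thioredoxin reductase with electrons from NADPH. Glutathione does parallel work: peroxidases and glutaredoxins spend it, glutathione reductase regenerates it, and glutathione transferases couple it to lipid peroxidation products and foreign compounds. Txnip binds the active site of reduced thioredoxin and holds it back, and working muscle, a steady source of peroxide, carries both systems together with catalase and the superoxide dismutases.

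Levels are given as relative signal, the background-subtracted processed signal of a spot divided by the 75th percentile of its array. Each gene is shown by its brightest probe, and levels are compared between arrays and not between genes. All 34 genes gave signals well above background on each array, beside 14928 genes of the whole array. The arrays had 22675 to 24221 probes well above background. A difference carries the standard error (SE) of the scanner software's error model, which covers the spot measurement only and was 0.20 on the log2 scale for the median member. The lowest SE of a member was 0.20 as well, so it was nearly constant over most members and hardly separated the genes. With 1 array per genotype no pairwise difference has a replicate check, so 1.5-fold marks a difference as called, and the words higher and lower describe these arrays. Bulk muscle was measured, so fewer cells of a type and less RNA per cell cannot be told apart.

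Txnip itself was low on both arrays labelled as lacking TBP-2. Its relative signal was 2.70 in TBP-2-/- muscle against 45.2 in WT muscle, and 0.607 in ob/ob TBP-2-/- muscle against 41.0 in ob/ob muscle. Probes for muscle fibre genes marked the tissue as labelled, with 10 of 10 skeletal muscle markers well above background on every array, while 0 or 1 of 3 hepatocyte markers were. Markers of other cells in the tissue differed between the arrays. All 10 adipocyte markers were higher in TBP-2-/- than in WT muscle (median log2 difference 0.75) and 9 of 10 were higher in ob/ob TBP-2-/- than in ob/ob muscle (median 1.29), as were 7 of 7 measured macrophage markers in both comparisons (medians 0.54 and 0.35). Tendon and fibroblast markers were higher for 8 of 8 genes in both TBP-2 comparisons (medians 0.99 and 0.47). They were higher for 6 of 8 in ob/ob relative to WT muscle (0.96) and for 8 of 8 in ob/ob TBP-2-/- relative to TBP-2-/- muscle (0.51). For Comp, Fmod and Tnmd the WT array stood apart as the low one. Comp had a relative signal of 0.133 in WT muscle against 4.28 in TBP-2-/-, 8.45 in ob/ob TBP-2-/- and 5.69 in ob/ob muscle. Fmod had 0.503 against 12.1, 19.7 and 15.2, and Tnmd 0.112 against 1.42, 4.10 and 2.37. The other markers of this list differed less. Schwann cell markers were higher for 5 of 5 in both TBP-2 comparisons (medians 1.07 and 0.81 above those of all genes). Endothelial markers were higher for 4 of 5 in TBP-2-/- relative to WT muscle (median 0.26). In ob/ob TBP-2-/- relative to ob/ob muscle 2 of 5 endothelial markers were higher (median -0.15). Summed adipocyte marker signal was 396 75th percentiles on the TBP-2-/- array against 276 on the WT array, and 294 on the ob/ob TBP-2-/- array against 205 on the ob/ob array. In ob/ob relative to WT muscle 8 of 8 slow fibre markers were lower (median -0.79), and in ob/ob TBP-2-/- relative to TBP-2-/- muscle 7 of 8 were (median -1.37). In ob/ob TBP-2-/- relative to ob/ob muscle 7 of 8 slow fibre markers were lower as well (median -0.50). In TBP-2-/- relative to WT muscle 5 of 8 were lower and 3 higher (median -0.11). The part of these cell and fibre markers in the differences below was not tested.

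With arrays scaled to their 75th percentile, loss of TBP-2 left most of the 34 genes within 1.5-fold on both backgrounds, and the differences that passed it lay in the glutathione transferases, catalase, extracellular superoxide dismutase and glucose-6-phosphate dehydrogenase. In TBP-2-/- relative to WT muscle, 2 members were higher (Cat and Sod3) and 3 lower (Gstm2, Gsta3 and Gstm1). Among the 15219 genes measured in this comparison, 5.87% passed 1.5-fold upward and 3.32% downward. At 2-fold the lean pair kept Gstm2, lower, and the ob/ob pair kept 0 members, beside 1.73% higher and 0.880% lower of all genes in the lean and 1.87% and 0.820% in the ob/ob pair. In ob/ob TBP-2-/- relative to ob/ob muscle, 3 members were higher (G6pdx, Gsta3 and Sod3) and 2 lower (Gstm2 and Gsta4), beside 6.53% and 3.63% of 15480 genes. The median member differed by -0.10 in the lean and -0.01 in the ob/ob comparison, and the median of all genes by -0.08 and 0.03, and the lean member median turned to 0.025 with quantile normalization and 0.14 with spike-in scaling. Scaling the arrays to spike-in RNA moved all genes by 0.25 and -0.51 in these comparisons and turned the member split to 4 higher and 1 lower in the lean pair and to 0 higher and 13 lower in the ob/ob pair. It adds the same constant to every gene, and under it 13.5% of all genes were called higher and 1.33% lower in the lean pair, and 1.44% and 34.3% in the ob/ob pair. The lean pair then had Cat, Sod3, Mgst1 and G6pdx higher and Gstm2 lower. In the ob/ob pair the 13 lower were Txn2, Txnrd1, Prdx5, Gpx3, Glrx, Sod2, Cat, Nfe2l2, Nqo1, Gsta4, Gstm1, Gstm2 and Mgst3. Statements below that a gene lay within 1.5-fold refer to the 75th-percentile scaling.

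**Figure D1:**
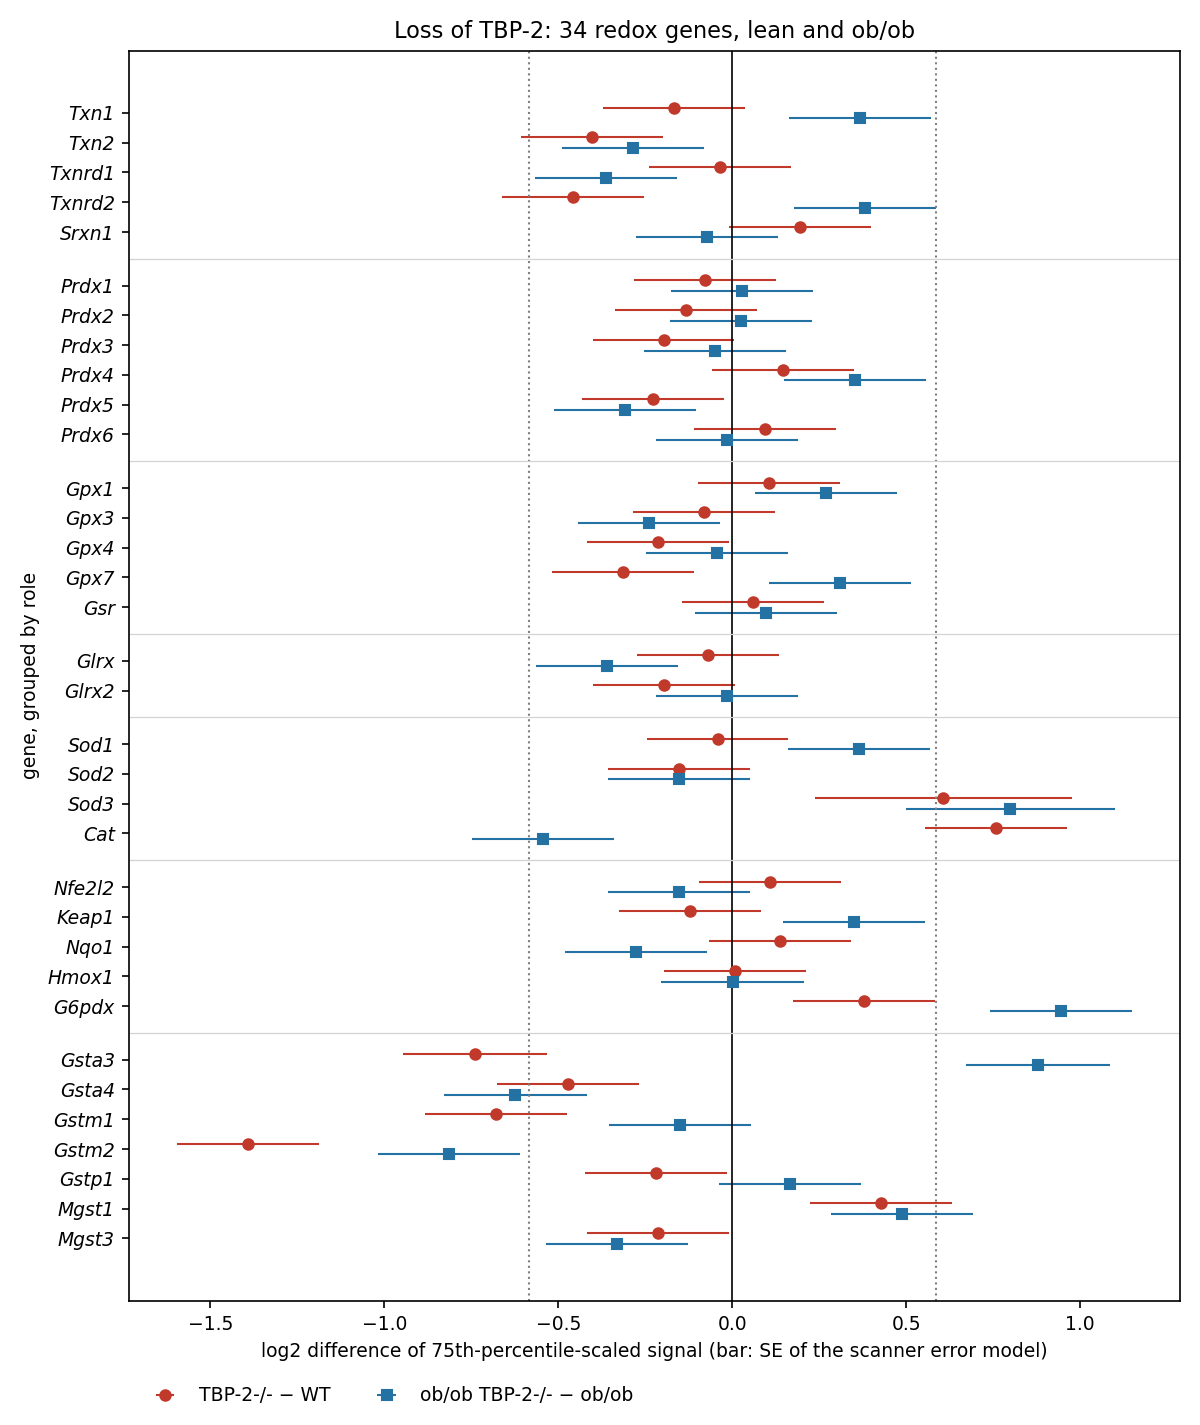
Log2 difference of the 34 genes, grouped by role, in TBP-2-/- minus WT muscle (circles) and ob/ob TBP-2-/- minus ob/ob muscle (squares), with 1 array per genotype. Bars are the SE of the scanner error model and dotted lines mark 1.5-fold. Gstm2 lies left of the line in both comparisons, Sod3 right of it in both, and Cat and Gsta3 lie on opposite sides of 0.

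Thioredoxin and its reductases are the direct neighbours of TBP-2, and at 75th-percentile scaling none of these 4 genes differed by 1.5-fold in either TBP-2 comparison, while with spike-in scaling Txn2 and Txnrd1 passed it, lower, in the ob/ob pair. Txn1 encodes cytosolic thioredoxin, the partner that Txnip binds (gene 22166, probe on chromosome 4 at 58037859 to 58037918, mm8). Txn1 had a relative signal of 11.6 in TBP-2-/- muscle against 13.1 in WT muscle, and 13.2 in ob/ob TBP-2-/- muscle against 10.2 in ob/ob muscle. The differences were -0.17 ± 0.20 and 0.37 ± 0.20 (log2, SE of the error model), and spike-in scaling turned both signs, to 0.08 and -0.14. Txn2, the mitochondrial thioredoxin (chromosome 15, 77742302 to 77742441), had 28.3 in TBP-2-/- muscle against 37.4 in WT muscle, and 22.3 in ob/ob TBP-2-/- muscle against 27.2 in ob/ob muscle. Both differences of Txn2 were below 0 (-0.40 and -0.28), and its other probe gave -0.35 and -0.25. Spike-in scaling put the ob/ob value of Txn2 at -0.79.

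Txnrd1, the cytosolic selenoenzyme that reduces thioredoxin (chromosome 10, 82327284 to 82327343), had 19.6 in TBP-2-/- muscle against 20.1 in WT muscle, and 17.9 in ob/ob TBP-2-/- muscle against 23.0 in ob/ob muscle. Its differences were -0.04 and -0.36, and the first was above 0 under quantile, spike-in and normexp processing (0.08, 0.21 and 0.0031). The second came to -0.87 with spike-in scaling. Txnrd2, the mitochondrial reductase (chromosome 16, 18351287 to 18351346), had 2.65 in TBP-2-/- muscle against 3.64 in WT muscle, and 3.18 in ob/ob TBP-2-/- muscle against 2.44 in ob/ob muscle. This brightest probe placed Txnrd2 lower in the lean pair (-0.46) and higher in the ob/ob pair (0.38), but spike-in scaling turned the ob/ob value to -0.12, and the other Txnrd2 probes gave -0.15 and -0.18 in the lean and -0.23 and -0.34 in the ob/ob pair. No direction on the ob/ob background can be stated for Txnrd2 from probes that differ in sign. Srxn1, sulfiredoxin, which repairs overoxidised peroxiredoxins, lay within 1.5-fold in all 4 comparisons, spike-in scaling included.

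The glutathione transferases held the most differences past 1.5-fold. In the lean pair 6 of the 7 lay below 0, or 4 of 7 with spike-in scaling, and 3 were called lower. The median was -0.47, and -0.23 with spike-in scaling. In the ob/ob pair 4 of 7 lay below 0, or 6 of 7 with spike-in scaling, with 2 called lower and 1 higher. Gstm2, a mu-class transferase (gene 14863, chromosome 3, 108109760 to 108109819), had a relative signal of 7.50 in TBP-2-/- muscle against 19.7 in WT muscle. On the ob/ob background Gstm2 had 14.0 in ob/ob TBP-2-/- muscle against 24.6 in ob/ob muscle. Both arrays lacking TBP-2 were below both arrays with it. Gstm2 was 2.62-fold lower in the lean pair (-1.39 ± 0.20) and 1.76-fold lower in the ob/ob pair (-0.81 ± 0.20), and it was the 1 member called lower in both comparisons, which share no array. Of all genes, 0.717% were called lower in both. Strain and the DNA around the deleted stretch of Txnip are not given in the labels. The part of any other inherited difference shared by the arrays lacking TBP-2 was not tested.

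Gstm1, another mu-class transferase (chromosome 3, 108140318 to 108140377), had 78.4 in TBP-2-/- muscle against 125 in WT muscle, and 107 in ob/ob TBP-2-/- muscle against 118 in ob/ob muscle. The TBP-2-/- array was the lowest of the 4, and the lean difference of -0.68 came to -0.48 with quantile normalization and -0.43 with spike-in scaling, short of 1.5-fold. Its other probe gave -0.59. The ob/ob difference of Gstm1 was -0.15, and -0.66 with spike-in scaling. The mu-class genes are close relatives, and cross-binding of probes between them was not tested. Gsta4, which detoxifies 4-hydroxynonenal from oxidised lipids (chromosome 9, 77984049 to 77985221), had 0.677 in TBP-2-/- muscle against 0.939 in WT muscle, and 0.506 in ob/ob TBP-2-/- muscle against 0.779 in ob/ob muscle. Gsta4 was thus lower on both arrays lacking TBP-2, by -0.47 ± 0.21 and -0.62 ± 0.21, and the ob/ob value fell short of 1.5-fold with normexp background correction (-0.43).

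Gsta3, an alpha-class transferase (chromosome 1, 21250259 to 21250318), took opposite directions on the 2 backgrounds. It had 0.284 in TBP-2-/- muscle against 0.474 in WT muscle, but 0.703 in ob/ob TBP-2-/- muscle against 0.382 in ob/ob muscle. The differences were -0.74 ± 0.21 and 0.88 ± 0.21, and the other Gsta3 probe gave -0.71 and 1.35. The lean value fell short of 1.5-fold with normexp (-0.55) and with spike-in scaling (-0.49), and the ob/ob value with spike-in scaling (0.37). Mgst1, a membrane-bound transferase and peroxidase, was higher without TBP-2 by less than 1.5-fold (0.43 and 0.49). With spike-in scaling the first came to 0.68, past 1.5-fold, and the second turned to -0.02. Gstp1 and Mgst3 stayed within 1.5-fold, apart from Mgst3 in the ob/ob pair with spike-in scaling (-0.84).

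**Figure D2:**
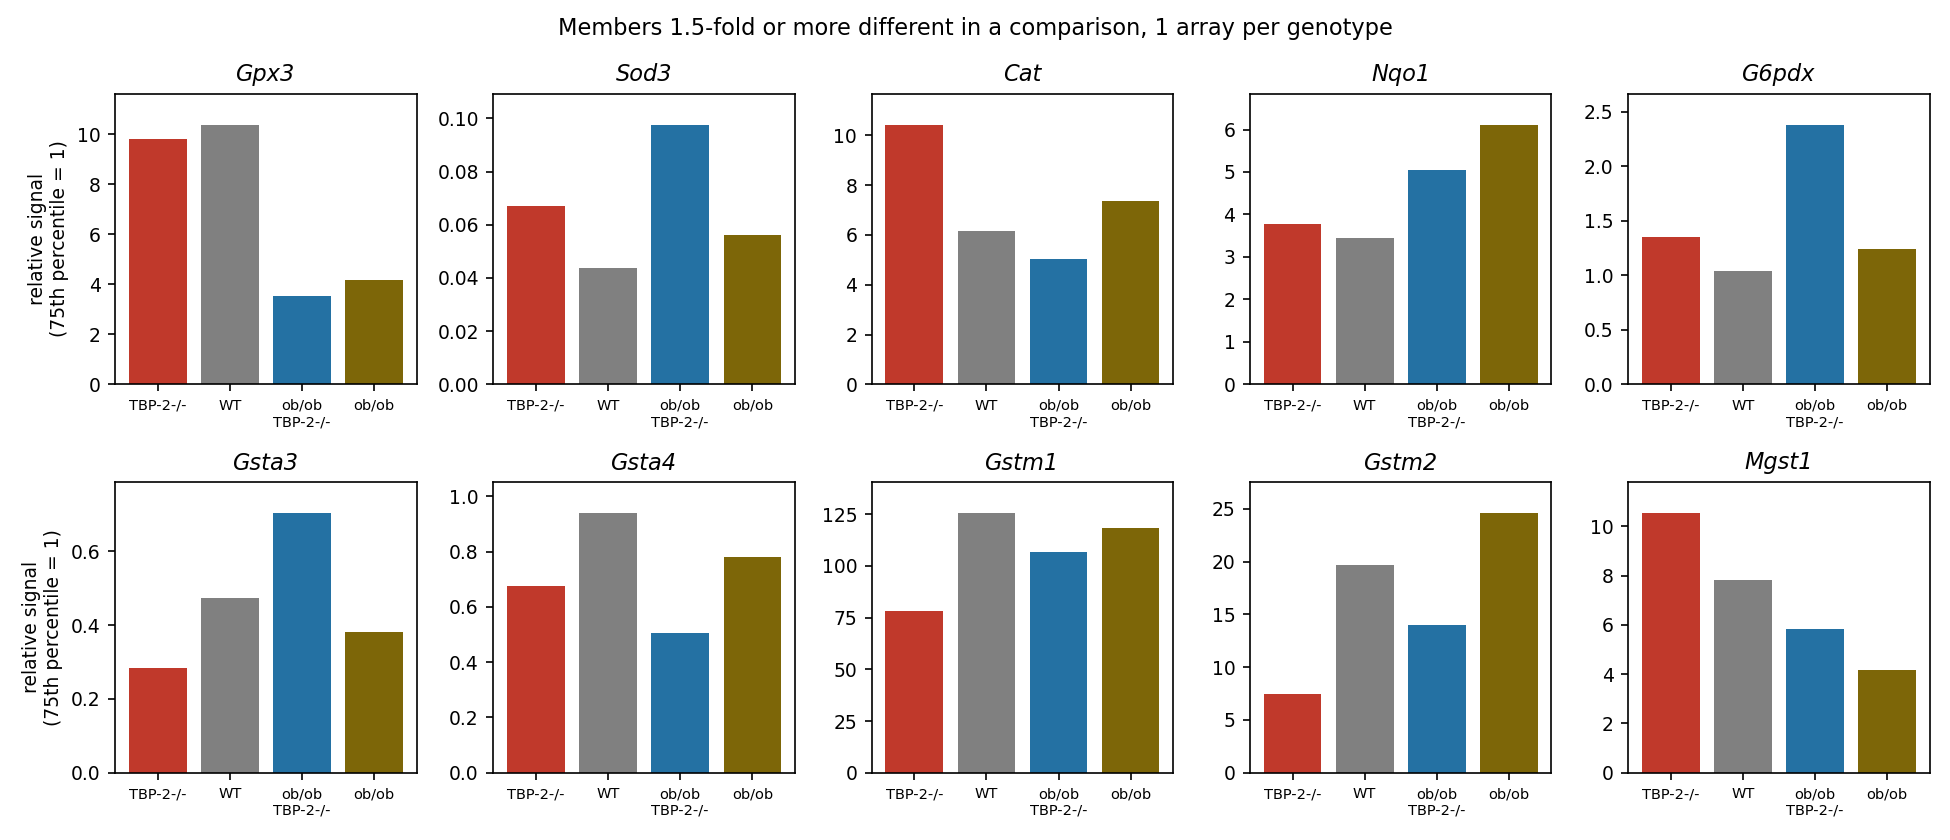
Relative signal (signal divided by the 75th percentile of the array, linear axes from 0) of the 10 members 1.5-fold or more different in any comparison, 1 bar per array. Gstm2 is low on both arrays lacking TBP-2, Gpx3 is low on both ob/ob arrays, Mgst1 is lower on both ob/ob arrays, and Cat is highest on the TBP-2-/- array.

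Catalase and extracellular superoxide dismutase were the members called higher in the lean pair. Cat, which breaks hydrogen peroxide down in peroxisomes (gene 12359, chromosome 2, 103255342 to 103255401), had a relative signal of 10.4 in TBP-2-/- muscle against 6.17 in WT muscle, and 5.04 in ob/ob TBP-2-/- muscle against 7.35 in ob/ob muscle. The TBP-2-/- array was the highest of the 4 and the ob/ob TBP-2-/- array the lowest. Cat was 1.69-fold higher in the lean pair (0.76 ± 0.20) and 1.46-fold lower in the ob/ob pair (-0.54 ± 0.20), the second at -1.05 with spike-in scaling. Sod3, which removes superoxide outside cells (chromosome 5, 52656327 to 52656386), had 0.0669 in TBP-2-/- muscle against 0.0439 in WT muscle, and 0.0976 in ob/ob TBP-2-/- muscle against 0.0561 in ob/ob muscle. It was 1.52-fold and 1.74-fold higher without TBP-2 (0.61 ± 0.37 and 0.80 ± 0.30), the 1 member called higher in both comparisons, beside 1.69% of all genes. Sod3 was the dimmest member, with a processed signal of 21.4 on the TBP-2-/- array against 12.8 on the WT array, where the lowest signal well above background was 11.3. With normexp the Sod3 differences came to 0.00057 and 0.41, the lean one to 0.50 with quantile normalization and the ob/ob one to 0.29 with spike-in scaling, all short of 1.5-fold. Sod1 and Sod2, the cytosolic and mitochondrial dismutases, lay within 1.5-fold in all 4 comparisons, although in the ob/ob pair Sod1 was 0.78 at the median of its probes and Sod2 -0.66 with spike-in scaling.

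G6pdx, which opens the pentose phosphate pathway and so supplies NADPH to both reductases (gene 14381, chromosome X, 70662330 to 70662389), had 1.35 in TBP-2-/- muscle against 1.04 in WT muscle, and 2.38 in ob/ob TBP-2-/- muscle against 1.24 in ob/ob muscle. The ob/ob TBP-2-/- array stood above the other 3. The differences were 0.38 ± 0.20 and 0.95 ± 0.20, and with spike-in scaling the first came to 0.62, past 1.5-fold, and the second to 0.44, short of it. Adipocyte markers, given above, were higher in the same 2 comparisons, and their part in this result was not tested. Nfe2l2 (NRF2, the transcription factor that switches on many of these genes), its inhibitor Keap1 and the NRF2 targets Hmox1 and Nqo1 differed by less than 1.5-fold in both TBP-2 comparisons. With spike-in scaling Nfe2l2 and Nqo1 passed it, lower, in the ob/ob pair (-0.66 and -0.78).

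**Figure D3:**
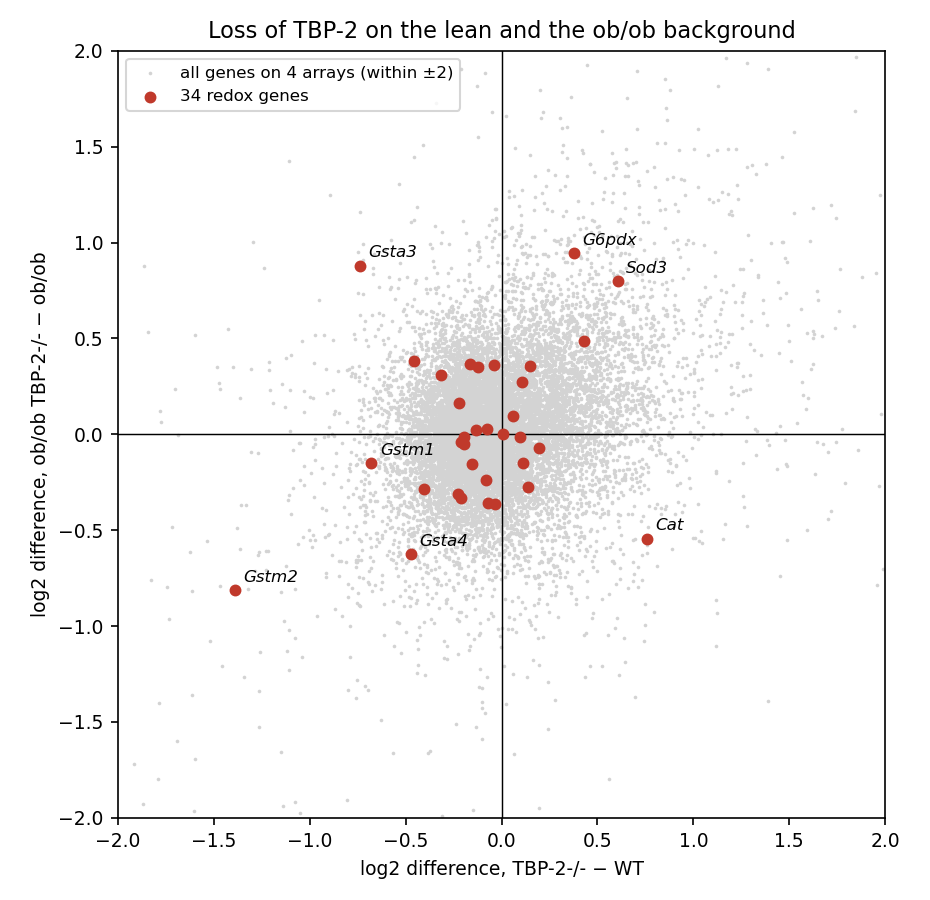
Log2 difference in TBP-2-/- minus WT muscle (x axis) against ob/ob TBP-2-/- minus ob/ob muscle (y axis) for genes well above background on 4 arrays within the plotted range (grey) and the 34 members (red). The pairs share no array. Gstm2 and Gsta4 lie lower left, Sod3 and G6pdx upper right, Gsta3 upper left and Cat lower right.

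In the TBP-2 comparisons the remaining members lay closer to 0 by their brightest probe. The 20 members below 1.5-fold in every comparison at 75th-percentile scaling, leaving aside the thioredoxins and their reductases, are Srxn1, Prdx1 to Prdx6, Gpx1, Gpx4, Gpx7, Gsr, Glrx, Glrx2, Sod1, Sod2, Nfe2l2, Keap1, Hmox1, Gstp1 and Mgst3. They ranged from -0.31 (Gpx7) to 0.20 (Srxn1) in the lean and from -0.36 (Glrx) to 0.36 (Sod1) in the ob/ob TBP-2 comparison. In ob/ob relative to WT muscle they ranged from -0.40 (Gstp1) to 0.41 (Gsr). In ob/ob TBP-2-/- relative to TBP-2-/- muscle the range was -0.50 (Prdx6) to 0.50 (Gpx7). For Gsr in ob/ob relative to WT muscle the other probes gave 1.10 and 0.42. The Gsr value was 0.94 at the median of its probes and 1.05 with spike-in scaling, both past 1.5-fold. The 6 peroxiredoxins, which reduce peroxides with electrons from thioredoxin, spanned -0.23 to 0.15 in the lean and -0.31 to 0.35 in the ob/ob pair. The median size of a member's difference, regardless of sign, was 0.20 in the lean and 0.30 in the ob/ob TBP-2 comparison, and that of all genes was 0.20 and 0.19.

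NRF2 acts at antioxidant response elements, so the promoters of the members were searched for the core letters TGACNNNGC or TGAGNNNGC on both strands, from 250 bases before to 50 after the start (RefSeq sequences, GRCm38.p6). Of the 34 members 29 had a promoter in the table, as 40 promoter entries. Of these 40 entries 10 held a match, beside 27.8% of 32851 promoters. The longer core TGACTCAGC or TGAGTCAGC, each a special case of the shorter letters, was in 3 of the 40, those of Srxn1, Prdx1 and Gstp1, beside 0.822% of promoters. Those 3 are printed because their match is the rarer one, and Gsta3, Mgst1 and G6pdx because their levels passed 1.5-fold in a comparison. Each runs 5′ to 3′ on the strand of its gene with the match in capitals, so a match on the opposite strand reads as its reverse complement.
Srxn1, chr2:152105454-152105512, plus strand: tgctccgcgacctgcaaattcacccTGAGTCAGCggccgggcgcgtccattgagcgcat
Prdx1, chr4:116685441-116685499, plus strand: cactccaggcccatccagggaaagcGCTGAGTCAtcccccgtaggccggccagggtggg
Gstp1, chr19:4037953-4038011, minus strand: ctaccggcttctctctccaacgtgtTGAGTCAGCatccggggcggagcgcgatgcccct
Gsta3, chr1:21240439-21240497, plus strand: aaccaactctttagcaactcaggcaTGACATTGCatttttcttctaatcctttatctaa
Mgst1, chr6:138140446-138140504, plus strand: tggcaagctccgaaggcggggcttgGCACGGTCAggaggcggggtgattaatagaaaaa
G6pdx, chrX:74428904-74428962, minus strand: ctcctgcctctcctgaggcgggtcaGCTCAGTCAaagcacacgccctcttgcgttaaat
Srxn1, Prdx1 and Gstp1, with the longer core, were each within 1.5-fold in all 4 comparisons. No match was found in these windows for Gstm1, Gstm2, Gpx3, Cat or Nqo1, each of which passed 1.5-fold somewhere. A match is a description of letters and was not tested as a site.

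Compared by ob/ob genotype, Gpx3 and Mgst1 were lower in ob/ob muscle with and without TBP-2. In ob/ob relative to WT muscle 1 member was called higher (Nqo1) and 2 lower (Gpx3 and Mgst1), beside 6.35% and 6.64% of 15089 genes. In ob/ob TBP-2-/- relative to TBP-2-/- muscle 3 were called higher (Gsta3, Gstm2 and G6pdx) and 3 lower (Gpx3, Cat and Mgst1), beside 6.45% and 4.87% of 15636 genes. At 2-fold Gpx3 was lower in the first, beside 1.66% of all genes (1.90% higher), and in the second Gsta3 was higher and Gpx3 and Cat lower, beside 1.81% and 1.55%. The 2 ob/ob comparisons share no array with each other, but each shares arrays with the TBP-2 comparisons. Gpx3 and Mgst1 were the 2 members called lower in both, beside 1.83% of all genes, and 0 members were called higher in both, beside 2.01%. The median member differed by -0.22 and -0.05, and the median of all genes by -0.04 and 0.05. Spike-in scaling moved all genes by 0.64 and -0.12 here, turned the first member median to 0.42, and gave splits of 11 higher and 1 lower in ob/ob relative to WT muscle and 3 higher and 4 lower in ob/ob TBP-2-/- relative to TBP-2-/- muscle. Of all genes it then called 7751 higher and 151 lower of 15089 in the first and 674 and 1173 of 15636 in the second.

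**Figure D4:**
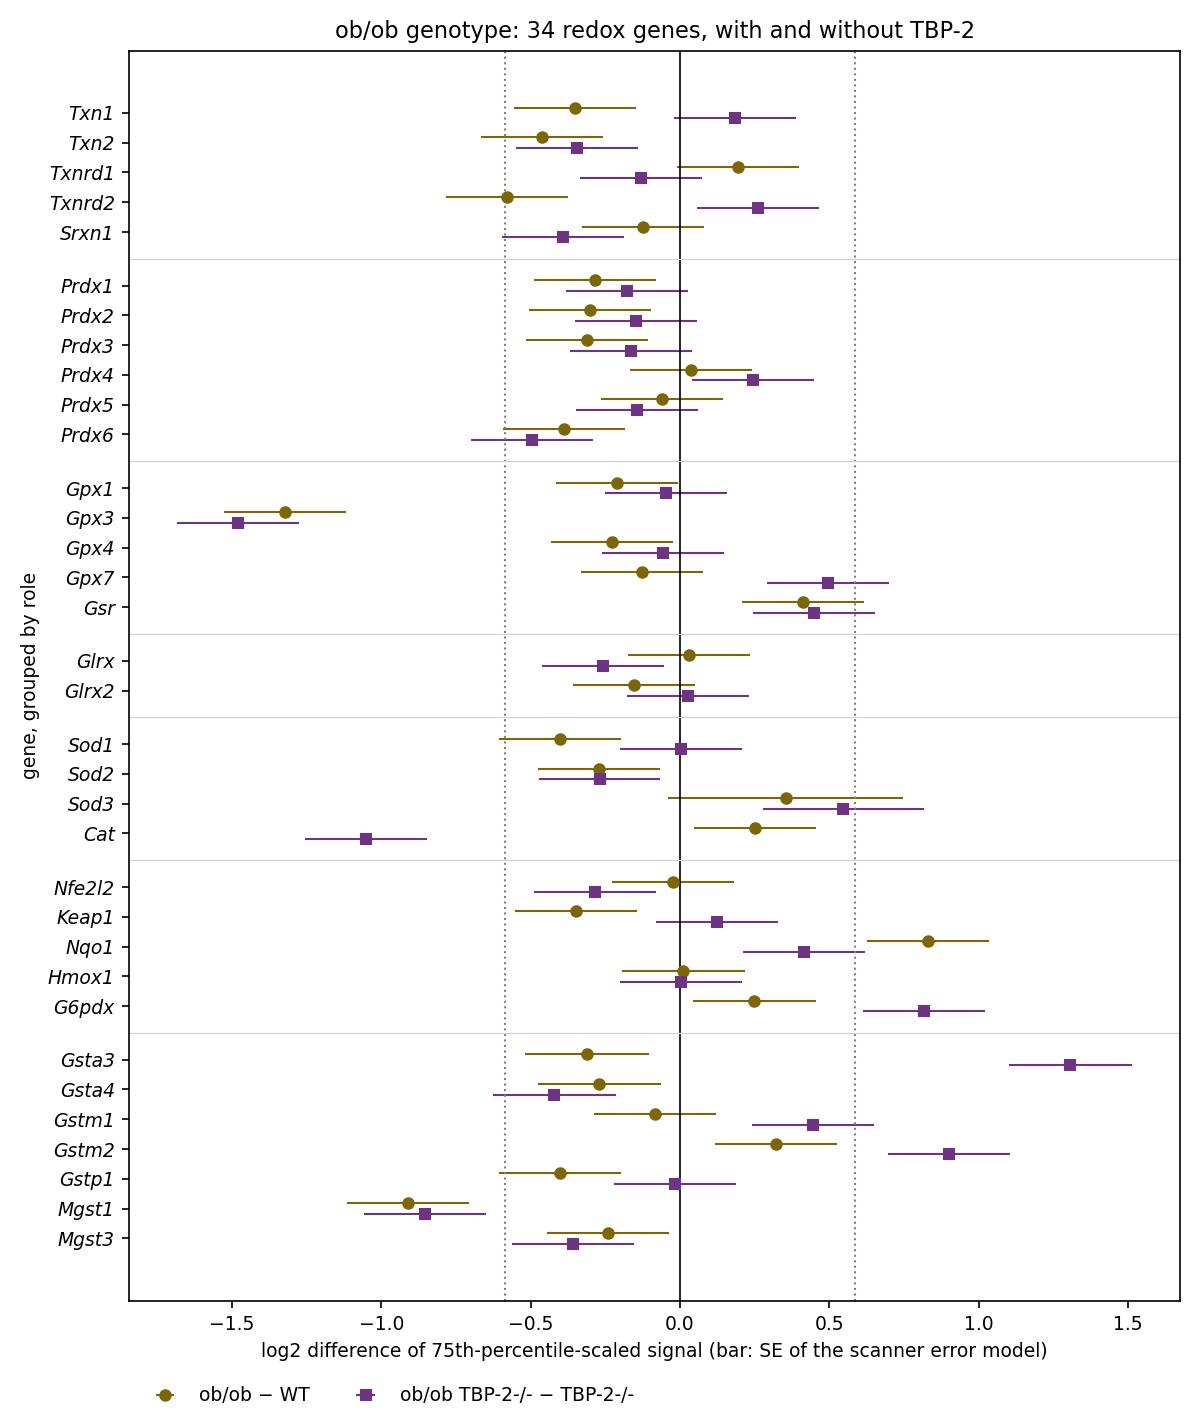
Log2 difference of the 34 genes, grouped by role, in ob/ob minus WT muscle (circles) and ob/ob TBP-2-/- minus TBP-2-/- muscle (squares), with 1 array per genotype. Bars are the SE of the scanner error model and dotted lines mark 1.5-fold. Gpx3 and Mgst1 lie left of the line in both comparisons.

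Gpx3 encodes the secreted glutathione peroxidase of plasma (gene 14778, chromosome 11, 54753357 to 54753416). Its relative signal was 4.15 in ob/ob muscle against 10.4 in WT muscle, and 3.52 in ob/ob TBP-2-/- muscle against 9.81 in TBP-2-/- muscle. Both ob/ob arrays were below both lean arrays, by 2.50-fold (-1.32 ± 0.20) and 2.79-fold (-1.48 ± 0.20). With TBP-2 loss Gpx3 differed by -0.08 and -0.24. The first was above 0 with quantile normalization (0.026) and spike-in scaling (0.16), and the second was -0.75, past 1.5-fold, with spike-in scaling. Mgst1 (gene 56615, chromosome 6, 138120416 to 138120475) had 4.16 in ob/ob muscle against 7.82 in WT muscle, and 5.84 in ob/ob TBP-2-/- muscle against 10.5 in TBP-2-/- muscle. Mgst1 was 1.88-fold and 1.80-fold lower, its other probe gave -1.14 and -0.90, and with spike-in scaling the first difference came to -0.27. Slow fibre markers, given above, were lower in the same 2 comparisons and in ob/ob TBP-2-/- relative to ob/ob muscle. Their part in these results was not tested.

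Nqo1, a quinone reductase and NRF2 target (chromosome 8, 110277669 to 110277728), had 6.11 in ob/ob muscle against 3.44 in WT muscle, and 5.05 in ob/ob TBP-2-/- muscle against 3.78 in TBP-2-/- muscle. Both ob/ob arrays were above both lean arrays, by 0.83 ± 0.20 and 0.42 ± 0.20. Cat was 2.07-fold lower in ob/ob TBP-2-/- than in TBP-2-/- muscle (-1.05 ± 0.20), against a difference of 0.25 ± 0.20 between ob/ob and WT muscle (0.89 with spike-in scaling). Gsta3 was 2.47-fold higher (1.31), Gstm2 1.87-fold higher (0.90) and G6pdx 1.76-fold higher (0.82) in ob/ob TBP-2-/- than in TBP-2-/- muscle, from the levels given above. Of the thioredoxin genes, Txn2 was lower in both ob/ob comparisons (-0.46 and -0.34), and spike-in scaling turned the first of these to 0.17. Txn1 differed by -0.35 and 0.18, the first turned to 0.29 by spike-in scaling, and Txnrd1 by 0.20 and -0.13, the first at 0.83 with spike-in scaling. The brightest Txnrd2 probe gave -0.58 in ob/ob relative to WT muscle, just inside 1.5-fold, but -0.59, just past it, in the deposited value table and 0.057 with spike-in scaling. Its other probes gave -0.20 and -0.17.

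The 4 arrays allow 1 test, an additive fit of the TBP-2 and ob/ob genotypes with 1 residual degree of freedom. In this limma fit 0 of the 34 members passed a Benjamini-Hochberg adjusted p of 0.05 for either genotype, beside 0.0992% of 16136 genes for TBP-2 and 0.223% for ob/ob. At an unadjusted p under 0.05, 3 members were higher and 2 lower for TBP-2, beside 6.98% and 2.73% of all genes, and 4 were higher and 3 lower for ob/ob, beside 7.62% and 5.93%. The lowest adjusted p for TBP-2 in limma was that of Gstm2, 0.281, with a fitted difference of -1.10 ± 0.21 and lower levels on both arrays lacking TBP-2. For ob/ob the limma fit gave Gpx3 an adjusted p of 0.0936, with -1.40 ± 0.16 and lower levels on both ob/ob arrays. With the fit restricted to genes well above background on all 4 arrays Gpx3 had an adjusted p of 0.0324 in limma, and across the 5 alternative settings its adjusted p ran from 3.51e-13 to 0.398. Whether the TBP-2 difference itself depended on the ob/ob background could not be tested, as the additive fit uses that departure as its error.

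Beyond the 34 members, 75 other genes of the pathway, in 6 lists chosen with earlier results of these data known, were counted against the same background shares. Past 1.5-fold, 7 of 70 measured genes lay above and 4 below their WT level in TBP-2-/- muscle, beside 5.87% and 3.32% of all genes, and 7 of 71 lay above and 8 below their ob/ob level in ob/ob TBP-2-/- muscle, beside 6.53% and 3.63%. In the list of glutathione synthesis and turnover 9 genes were measured. Of these, 1 was called higher in each TBP-2 comparison, with 0 lower in the lean and 3 lower in the ob/ob pair. Chac1, which cleaves glutathione, was named because its mean TBP-2 difference was among the largest of this list. Chac1 had a relative signal of 60.4 in TBP-2-/- muscle against 27.3 in WT muscle, and 24.5 in ob/ob TBP-2-/- muscle against 10.2 in ob/ob muscle. It was 2.22-fold and 2.40-fold higher without TBP-2, and 2.68-fold lower in ob/ob than in WT muscle. Oplah, which returns 5-oxoproline to glutamate, was lower without TBP-2 on its bright probe (-0.50 and -1.03), while a dim one gave 0.23 and 0.41 and the median of its probes -0.31 in the ob/ob pair. Ggt7, a gamma-glutamyltransferase relative, differed by -0.57 and -0.87, and by -0.25 and -0.31 on its other probe. The first passed 1.5-fold with quantile normalization (-0.63), and the second fell short with normexp (-0.22).

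Other transferases differed in both directions. Gstk1, the kappa-class enzyme of mitochondria and peroxisomes, had 16.5 in TBP-2-/- muscle against 36.2 in WT muscle, and 16.5 in ob/ob TBP-2-/- muscle against 32.4 in ob/ob muscle. It was 2.20-fold and 1.96-fold lower without TBP-2. Gstm7, a mu-class gene, was also lower (-0.73 and -0.65, and -1.36 and -1.44 on its other probe), and both values of the brighter probe fell short of 1.5-fold with normexp (-0.35 and -0.23), as did the lean one with spike-in scaling (-0.49). Mgst2, a microsomal transferase, was higher (0.68 and 1.06), but short of 1.5-fold in the lean pair with normexp (0.36) and in the ob/ob pair with spike-in scaling (0.55).

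Tkt and Pgd, which follow G6pdx in the pentose phosphate pathway, were called higher in both TBP-2 comparisons. They were named because their mean TBP-2 differences were among the largest of their list. Taldo1, of the same pathway and list, had a TBP-2 difference of 0.03 in the additive fit. Tkt, the transketolase, had 14.9 in TBP-2-/- muscle against 8.26 in WT muscle, and 28.5 in ob/ob TBP-2-/- muscle against 7.89 in ob/ob muscle, a 1.81-fold and 3.62-fold difference. Pgd, 6-phosphogluconate dehydrogenase, had 3.64 in TBP-2-/- muscle against 2.22 in WT muscle, and 5.83 in ob/ob TBP-2-/- muscle against 2.56 in ob/ob muscle (0.71 and 1.19, and 0.85 and 0.92 on its other probe). Over the list of NADPH enzymes and NRF2 targets, 2 of 20 passed 1.5-fold upward and 0 downward in the lean pair, and 3 upward and 2 downward in the ob/ob pair, beside the same shares of all genes as above. The lowest value of this list in the ob/ob pair was -1.25. Adipocyte markers moved with Tkt and Pgd, as given above. Nnt, which makes NADPH in mitochondria, had 27.9 in TBP-2-/- muscle against 26.0 in WT muscle, and 16.9 in ob/ob TBP-2-/- muscle against 7.63 in ob/ob muscle. The ob/ob array was the low one for Nnt, on its 3 bright probes alike. Strain is not given in the labels, and its part in the Nnt levels was not tested.

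**Figure D5:**
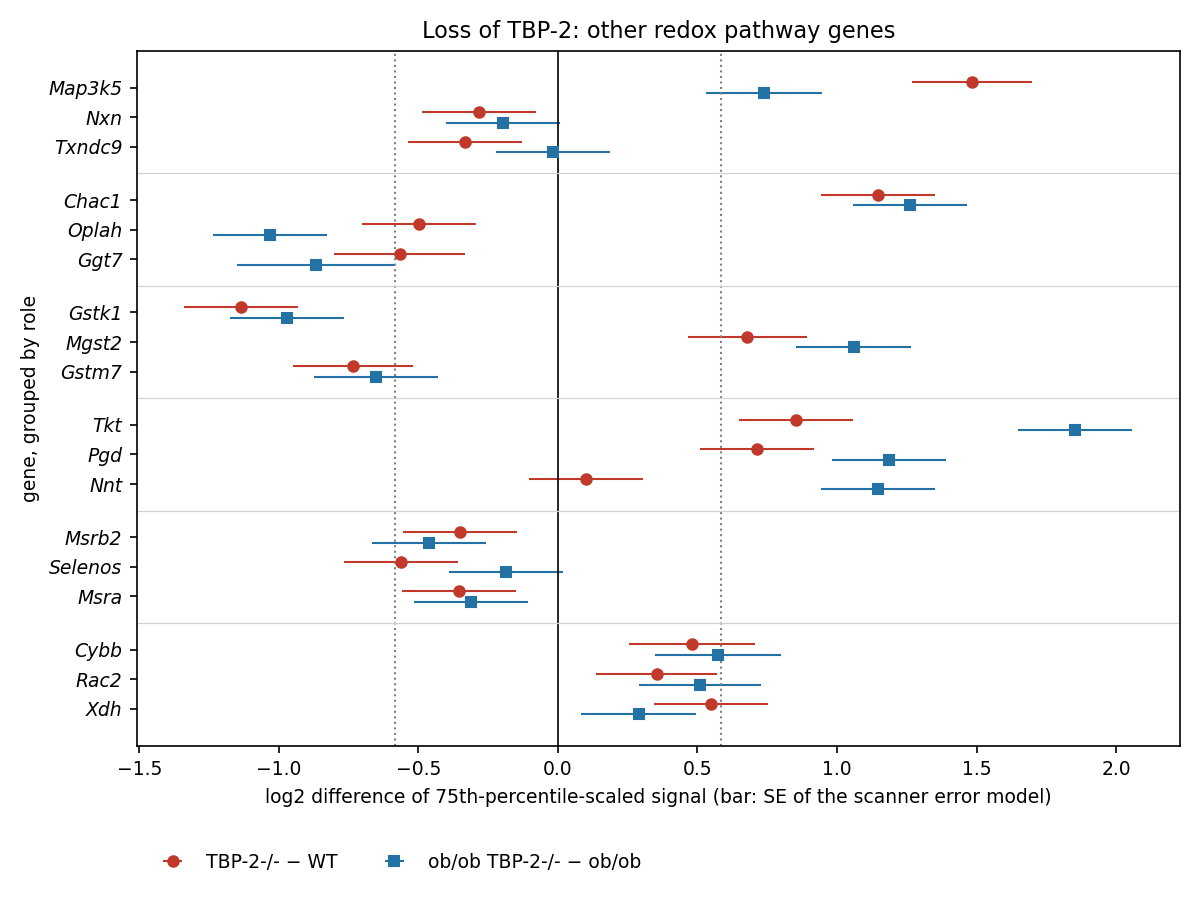
Log2 difference of 18 further redox pathway genes in TBP-2-/- minus WT muscle (circles) and ob/ob TBP-2-/- minus ob/ob muscle (squares), with 1 array per genotype. Bars are the SE of the scanner error model and dotted lines mark 1.5-fold. Chac1, Tkt, Pgd, Map3k5 and Mgst2 lie right of the line in both comparisons, and Gstk1 and Gstm7 left of it in both. Of all genes, 1.69% were called higher in both and 0.717% lower in both.

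Among relatives of thioredoxin, Map3k5 (ASK1, a stress kinase that reduced thioredoxin binds and restrains) had 0.517 in TBP-2-/- muscle against 0.185 in WT muscle, and 0.636 in ob/ob TBP-2-/- muscle against 0.382 in ob/ob muscle. The WT array was the lowest, and the differences were 1.48 ± 0.21 and 0.74 ± 0.21, with the second at 0.56 under normexp and 0.23 under spike-in scaling. Nxn, nucleoredoxin, and Txndc9 were within 1.5-fold, though Nxn came to -0.70 in the ob/ob pair with spike-in scaling. The methionine sulfoxide reductase genes Msra and Msrb2 and the selenoprotein gene Selenos were lower by less than 1.5-fold in both TBP-2 comparisons (-0.56 to -0.19). With spike-in scaling their ob/ob values passed it, at -0.82, -0.97 and -0.69. Of the sources of superoxide, Cybb and Rac2 of the phagocyte oxidase were higher by 0.48 and 0.35 in the lean and 0.57 and 0.51 in the ob/ob pair, and macrophage markers were higher in the same comparisons. A second Cybb probe, not well above background on any array, had opposite signs in the lean and the ob/ob pair, and the median of the Cybb probes was 0.75 and -0.21. Spike-in scaling put the lean values of Cybb and Rac2 past 1.5-fold (0.73 and 0.60). Xdh, xanthine dehydrogenase, was higher by 0.55 and 0.29 on its brightest probe and differed by 0.55 and -0.035 on the other. With spike-in scaling its values were 0.80, past 1.5-fold, and -0.22. The part of macrophage content in the oxidase values was not tested.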

How the data were processed

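The 34 members, the lists and the rule for named genes were chosen with earlier results of these data known. Spot intensity values in the scanner files were produced by the authors with Agilent Feature Extraction 9.5.3.1, per the submitters' processing notes and the file headers. Per the file headers, the processed signal is background-subtracted and detrended within each array, and 1 slide and 1 scan date cover the 4 arrays, so neither separates the genotypes. The authors also deposited a table of log2 values. Set against the scanner signals, its differences between arrays had the scale and direction of log2 signal over the 75th percentile, and each probe's median over the arrays was within 0.001 of 0. Its column medians were -0.06, 0.0091, -0.01 and 0.09 for TBP-2-/-, ob/ob TBP-2-/-, ob/ob and WT. It keeps no levels, and its treatment of low values is not given in the labels or headers.

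From the processed signals, outlier spots were left out (59 to 110 per array), replicate spots averaged, and log2 of the array's 75th percentile (273 to 321) subtracted. The median SD of replicated probes was 0.060 to 0.069. No spot was saturated. Probes were named through RefSeq accession (24367), symbol (6307) or synonym (2425) in a GRCm38.p6 table, and the remaining 8075 kept their name on the array. Probe positions are on mm8, per the file headers, and their place within exons or untranslated regions was not analysed here. A gene entered a pairwise comparison if the scanner software marked it well above background on both arrays. The fit used limma 3.58.1 in R 4.3.3 (lmFit, eBayes) on genes above background by that criterion on 2 or more arrays, and was tested on simulated data. Full values were given for Txn1, Txn2, Txnrd1, Txnrd2 and members past 1.5-fold in any comparison or called in the fit, and up to 3 genes per other list with the largest mean TBP-2 difference, plus Txnip. Alternatives were quantile normalization, spike-in scaling, normexp with offset 50, the median of a gene's probes, the deposited table, and other filters on dim probes. Protein sequences were not used here. The number of arrays limits the precision.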

Additional observations from a re-analysis of the deposited data

Results flagged for a closer look

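Catalase and Gsta3 drew attention because their TBP-2 differences took opposite directions on the lean and the ob/ob background. Each difference exceeded 2 SE of the scanner error model. That SE was nearly the same for most members. In the 2 TBP-2 comparisons 20 of the 34 members had the same sign, beside 55.8% of all genes well above background on each array. The share of all genes with opposite signs past 2 SE was not counted. For Cat the difference was -0.54 between ob/ob TBP-2-/- and ob/ob muscle and 0.76 between TBP-2-/- and WT muscle, so the ob/ob value minus the lean value was -1.30 on the log2 scale. For Gsta3 these differences were 0.88 and -0.74, and the ob/ob value minus the lean value was 1.62. Both Gsta3 probes showed the opposite directions, while Cat had a single probe. With 1 array per genotype this contrast between backgrounds was not tested.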

How the results depend on the processing

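The count of members past 1.5-fold was 5 in each TBP-2 comparison, 3 in ob/ob relative to WT muscle and 6 in ob/ob TBP-2-/- relative to TBP-2-/- muscle. In TBP-2-/- relative to WT muscle it was 3 with quantile normalization and 3 with normexp, where 9.16% and 3.51% of all genes were called, against 9.19% as reported. In ob/ob TBP-2-/- relative to ob/ob muscle it was 13 with spike-in scaling and 3 with normexp, beside 35.8% and 4.22% of all genes (10.2% as reported), and in ob/ob relative to WT muscle 12 with spike-in scaling, beside 7902 of all genes (1960 as reported). The member median moved to 0.025 (quantile) and 0.14 (spike-in) in TBP-2-/- relative to WT muscle. It moved to -0.52 (spike-in) and -0.11 (median of probes) in ob/ob TBP-2-/- relative to ob/ob muscle. In ob/ob relative to WT muscle it was -0.0473 (quantile) and 0.42 (spike-in), and in ob/ob TBP-2-/- relative to TBP-2-/- muscle -0.17 (spike-in). Spike-in scaling adds 1 constant per comparison to every gene, by construction. The cause of the other movements was not tested. Over all genes normexp gave 337 higher and 586 lower in ob/ob relative to WT muscle, against 958 and 1002 as reported.

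The limma fit depended strongly on its setting. With normexp 2 members passed for TBP-2 (Gstm2 lower and G6pdx higher) and 4 for ob/ob (Gpx3 and Mgst1 lower, Nqo1 and Gstm2 higher), and 1, Gpx3, passed for ob/ob with genes well above background on all 4 arrays. With quantile normalization, spike-in scaling and the median of probes 0 members passed, with 1 to 5 at an unadjusted p under 0.05. Over all genes the fit called 16 for TBP-2 and 36 for ob/ob, against 0 and 0 with quantile normalization, 103 and 241 with spike-in scaling, 472 and 798 with normexp, 12 and 16 with the median of probes, and 22 and 107 with the filter on 4 arrays. The prior degrees of freedom of eBayes were 3.58 and became infinite with normexp and spike-in scaling. No paired analysis was possible because each genotype had 1 array. Leaving out an array was not possible for the same reason. Signal over background limited Sod3, the dimmest member, most. Of the 6 alternatives, quantile normalization, spike-in scaling and normexp could change the value of any member. Under these, direction and call were kept by Gstm2 in both TBP-2 comparisons and by Gpx3 in both ob/ob comparisons. Also kept were the calls of Cat in TBP-2-/- relative to WT muscle and Nqo1 in ob/ob relative to WT muscle. The same held for Cat, G6pdx, Gsta3, Gstm2 and Mgst1 in ob/ob TBP-2-/- relative to TBP-2-/- muscle. All these calls were also kept under the remaining alternatives, which could hardly alter them. The median of probes cannot change Gstm2, Gpx3, Cat, Nqo1 or G6pdx, which have 1 probe each, but could change Gsta3 and Mgst1. Leaving out the filter on dim probes cannot change members well above background on each array. The deposited table had nearly the same differences between arrays as the values reported.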
